A study of Mus musculus with 8 samples.

Results

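Genes of macrophage fusion and of the osteoclast-like programme were followed in mouse bone marrow-derived macrophages (BMDM) with a floxed Opa1 gene, with or without a myeloid Cre driver. The group holds 9 genes, chosen by symbol: Cdh1, Dcstamp, Ocstamp, Cd9, Cd81, Tnfrsf11a, Oscar, Nfatc1 and Acp5. All 9 are among the 24421 gene symbols of the count data, and 8 of them had enough reads to enter the test, with Oscar left out for low counts. BMDM are macrophages grown in culture from marrow cells. All cells had received interleukin 4 (IL-4) for 24 h, and all mice carried OPA1f/f, the Opa1 allele flanked by loxP sites. The CKO libraries (replicates 2, 6, 7 and 8) are OPA1f/f; Lyz2-Cre, where Cre recombinase is driven from the myeloid gene Lyz2. The FLOX libraries (replicates 3, 4, 6 and 7) are OPA1f/f alone. OPA1 is a GTPase of the inner mitochondrial membrane, and the study asked how its loss changes transcription in IL-4-treated macrophages. No FLOX library carries the driver, so loss of Opa1, the driver itself and any culture or library batch cannot be told apart. Whether the 4 libraries of a genotype stem from different mice is not stated, and p-values here reflect library-to-library spread alone.

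Macrophages can fuse into multinucleated cells. IL-4 drives the fusion that yields giant cells, and RANK ligand drives the fusion that yields osteoclasts, the cells that resorb bone. Both routes use the membrane proteins DC-STAMP and OC-STAMP, while the tetraspanins CD9 and CD81 are known to restrain fusion of mouse mononuclear phagocytes and E-cadherin takes part in IL-4-driven fusion. In the osteoclast route, RANK signals together with receptors that use immunoreceptor tyrosine-based activation motifs (ITAM), calcium activates the transcription factor NFATc1, and NFATc1 switches on resorption genes such as Acp5.

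Read pairs assigned to genes numbered 11764855 to 18939948 per library. Levels are given as CPM, counts scaled to library size (with TMM factors). Opa1, counted over the whole gene, had 94.6, 98.5, 105 and 102 CPM in CKO libraries 2, 6, 7 and 8, against 104, 114, 108 and 130.3 CPM in FLOX libraries 3, 4, 6 and 7 (log2 fold change -0.19, edgeR adjusted p = 0.0544). Gene totals cannot show the deleted exons. Lyz2, the site of the driver, ranged from 1807.9 to 2385.3 CPM in CKO and from 6901.7 to 8289.1 CPM in FLOX, so each library matched its label by the driver gene. CKO replicate 2 had the CKO value nearest to FLOX for 61.2% of the 5231 genes that differed, and for 5 of the 6 members that differed, Cd81 being the exception. The fold changes of the members and the counts of called genes were therefore also computed without it. The FLOX libraries split as well, along the second principal component of log2 CPM, an axis holding 12.7% of the variance between libraries. FLOX replicates 3 and 6 lay at 19.7 and 11.2 on it, and 4 and 7 at -13.79 and -16.05. What the split reflects was not tested. The epithelial list, whose defining genes often accompany Cdh1, summed to only 2 to 5 counts per library. The labels describe BMDM but speak of islets in the extraction text, and 9 of 10 islet markers had 0 counts in all libraries.

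Of the 8 members tested, 3 were higher in CKO (Cdh1, Tnfrsf11a and Cd81), 3 were lower (Cd9, Acp5 and Nfatc1), and 2 did not pass (Dcstamp and Ocstamp). Calls rest on the quasi-likelihood F test of edgeR over 11519 genes at a Benjamini-Hochberg adjusted p of 0.05. Over all tested genes 45.4% were called, 23.8% higher and 21.6% lower in CKO. The CKO and FLOX ranges did not overlap for 5 of the 8 members, namely Cdh1, Tnfrsf11a, Cd81, Cd9 and Nfatc1, against 42.7% of all tested genes. With 8 members these shares are given as counts only. The median log2 fold change of all tested genes was -0.02, and no other scaling or left-out library moved it by more than 0.026. RNA was measured in bulk, so a smaller number of cells of some kind and less RNA per cell cannot be told apart.

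**Figure D1:**
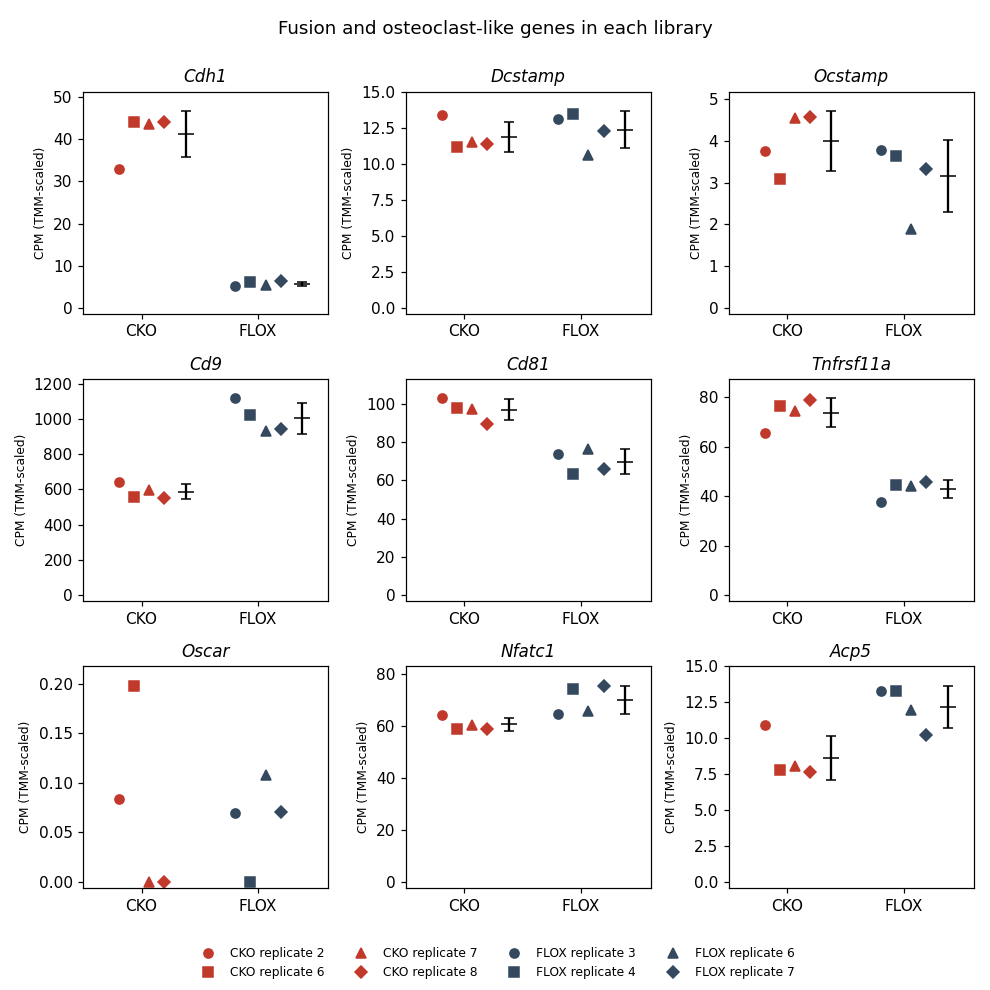
Level of each of the 9 genes in every library, in CPM scaled by TMM, with CKO at the left and FLOX at the right of each panel; points are libraries, and black bars show the mean and SD (n = 4 each), except for Oscar, which has 8 counts in all. CKO points lie above FLOX points for Cdh1, Cd81 and Tnfrsf11a and below them for Cd9 and Nfatc1, and the ranges overlap for Dcstamp, Ocstamp, Oscar and Acp5.

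The adhesion gene Cdh1 had by far the widest difference of the group. Cdh1 (ENSMUSG00000000303, chromosome 8, 106603351 to 106670246, plus strand, mm10) encodes E-cadherin, a calcium-dependent adhesion protein that binds catenins inside the cell. It had 33.0, 44.0, 43.7 and 44.0 CPM in CKO libraries 2, 6, 7 and 8, against 5.26, 6.05, 5.45 and 6.31 CPM in FLOX libraries 3, 4, 6 and 7. Every CKO library stood above every FLOX library, and the lowest CKO value was that of replicate 2. The mean was 41.2 ± 5.45 CPM in CKO and 5.77 ± 0.496 CPM in FLOX (4 libraries each, ± SD), from 2425 and 345 counts. CKO was thus at 717% of FLOX with a 95% interval of 603% to 852% (log2 fold change 2.84 with an SE of 0.11, edgeR adjusted p = 2.04e-08). By p-value it ranked 4 among all tested genes. Leaving out single libraries gave 2.80 to 2.96, the upper end being that without CKO replicate 2.

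Genes around E-cadherin moved both ways. Of 28 genes of the cadherin and catenin list found in the files, 12 were tested, 3 were higher and 4 lower in CKO (25% and 33.3%, beside 23.8% and 21.6% of all tested genes), with a median log2 fold change of 0.03. Ctnnb1, which encodes β-catenin, the direct partner of the E-cadherin tail, averaged 532 ± 18.3 CPM in CKO and 889 ± 78.9 CPM in FLOX (log2 fold change -0.74, edgeR adjusted p = 4.94e-06). Ctnna1, whose α-catenin product links the complex to actin, was also lower (-0.28, edgeR adjusted p = 0.000973), as was the desmosomal plakophilin gene Pkp2 (-0.70, edgeR adjusted p = 0.00194). Ctnnd1, which encodes p120-catenin, had 224 ± 13.6 CPM in CKO and 222 ± 29.5 CPM in FLOX (0.01, edgeR adjusted p = 0.911). The actin linkers Vcl (vinculin, 0.64) and Mllt4 (afadin, 0.55) were higher in CKO. The other 2 genes called encode repressors of Cdh1 in epithelial cells, Zeb1, which was higher (0.85, edgeR adjusted p = 0.00501), and Zeb2, which was lower (-0.33, edgeR adjusted p = 0.0426). None of the 7 other cadherins in the list reached the tested set, and the highest value of any of them was 0.497 CPM, for Cdh11 in a single library.

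Markers of other cells known to carry E-cadherin were read beside it. Of 14 epithelial genes 8, among them Krt8, Krt18, Krt19 and Esrp1, had 0 counts in every library, and Epcam had 1 count in 1 FLOX library. The summed epithelial list was 0.135 to 0.308 CPM in CKO and 0.108 to 0.35 CPM in FLOX. The list of dendritic and Langerhans cell genes summed to 238 to 254 CPM in CKO and 223 to 242 CPM in FLOX, most of it Itgax, a gene macrophages share. Within it 1 of 6 tested genes differed, Cd207, which encodes the Langerhans cell lectin langerin, named here after its value was seen. That was 16.7% higher and 0% lower, beside 23.8% and 21.6% of all tested genes. Cd207 had 59, 76, 73 and 100 counts in CKO libraries 2, 6, 7 and 8, against 15, 10, 35 and 6 counts in FLOX libraries 3, 4, 6 and 7 (log2 fold change 2.28, edgeR adjusted p = 4.88e-05). The dendritic cell genes Flt3 and Zbtb46 were low, Flt3 with 0 to 3 counts per library and Zbtb46 averaging 1.64 CPM in the CKO libraries and 1.23 CPM in the FLOX libraries. The part of such cells in the Cdh1 result was not tested.

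Neither member of the STAMP family, the multipass membrane proteins without which mouse osteoclasts and giant cells do not fuse, passed the test. Dcstamp (ENSMUSG00000022303, chromosome 15, 39745930 to 39760938, plus strand) had 13.4, 11.2, 11.5 and 11.4 CPM in CKO libraries 2, 6, 7 and 8, against 13.1, 13.5, 10.6 and 12.3 CPM in FLOX libraries 3, 4, 6 and 7. The ranges lay over each other, with FLOX replicate 6 the lowest of all 8. CKO was at 96.1% of FLOX with a 95% interval of 82.5% to 112% (log2 fold change -0.06 with an SE of 0.10, edgeR adjusted p = 0.672).

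Ocstamp (ENSMUSG00000027670, chromosome 2, 165393760 to 165400405, minus strand) was sparser. It had 45, 47, 74 and 68 counts in CKO libraries 2, 6, 7 and 8, against 54, 48, 35 and 47 counts in FLOX libraries 3, 4, 6 and 7. On the CPM scale these were 3.77, 3.10, 4.56 and 4.58 in CKO and 3.78, 3.63, 1.89 and 3.33 in FLOX, so the ranges overlapped, with CKO replicates 7 and 8 highest and FLOX replicate 6 lowest. The log2 fold change was 0.37 (SE 0.21, 95% interval -0.09 to 0.84, edgeR adjusted p = 0.175). Without FLOX replicate 6 it was 0.16 (edgeR adjusted p = 0.463), so that library carries much of the estimate. The interval includes no difference as well as a rise of the size seen for Cd81 or Tnfrsf11a, and at these counts the gene is not resolved. The Dcstamp to Ocstamp count ratio was 3.56, 3.62, 2.53 and 2.50 in the CKO libraries and 3.46, 3.73, 5.63 and 3.68 in the FLOX libraries.

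Other genes with a reported part in macrophage fusion split evenly. Of 32 tested genes of the fusion list, 12 were higher and 12 lower in CKO, which is 37.5% each way, and the median log2 fold change was 0.00. Over all tested genes the shares were 23.8% higher and 21.6% lower. Among those lower was Atp6v0d2, a proton pump subunit needed for fusion of mouse osteoclast precursors, with 394 ± 37.5 CPM in CKO and 905 ± 93.6 CPM in FLOX (log2 fold change -1.20, edgeR adjusted p = 9.49e-07). Tyrobp, the adaptor DAP12 that pairs with TREM2 in fusion, was lower as well (-0.56, edgeR adjusted p = 0.0004). Among those higher were the chemokine Ccl2 (2.45) and its receptor Ccr2 (1.12), which act in giant cell formation. Ccl2 had 204, 353, 408 and 426 CPM in CKO libraries 2, 6, 7 and 8, against 59.2, 74.2, 63.2 and 58.4 CPM in FLOX libraries 3, 4, 6 and 7. Ccr2 also marks monocytes. Of 4 tested monocyte markers 3 were higher, Ccr2 and Vcan among them, and Fn1 was lower. These were 75% and 25%, beside 23.8% and 21.6% of all tested genes. The whole monocyte list summed to 101 to 126 CPM in CKO and 109 to 150.0 CPM in FLOX. The part of monocytes in these values was not tested. The surface protease gene Adam8 (0.57) and the Rac regulator gene Elmo1 (0.59) were also higher.

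The tetraspanins Cd9 and Cd81 moved in opposite directions. Tetraspanins span the membrane with several helices and organise integrins and other partners into patches. Promoters of this pair are printed first, taken from RefSeq on GRCm38.p6 (the assembly also called mm10), on the strand of the gene and 5′ to 3′. Each ends before the first exon of the gene model, and capitals mark CACCTG or its reverse complement, the E-box read by SNAI and ZEB repressors. RefSeq promoters were found for 5 of the 9 members, and Cdh1, Dcstamp and Ocstamp had no entry.
Cd9, chr6:125494792-125495010, minus strand: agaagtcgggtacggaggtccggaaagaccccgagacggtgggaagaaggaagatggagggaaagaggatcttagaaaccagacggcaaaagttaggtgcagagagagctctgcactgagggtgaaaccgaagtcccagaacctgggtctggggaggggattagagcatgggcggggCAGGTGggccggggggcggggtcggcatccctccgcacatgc
Cd81, chr7:143052500-143052738, plus strand: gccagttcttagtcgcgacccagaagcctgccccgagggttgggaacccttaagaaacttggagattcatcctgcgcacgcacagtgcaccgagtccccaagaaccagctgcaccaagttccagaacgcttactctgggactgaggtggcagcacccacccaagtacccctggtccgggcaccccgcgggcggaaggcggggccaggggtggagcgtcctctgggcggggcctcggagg
Cd9 holds 1 such E-box in the 250 bases before its start, and 17.2% of 32851 RefSeq promoters hold at least 1 in the same window. Cd81 holds none of the 6 motifs searched, which were TTCNNNNGAA (STAT6 type), TTCNNNGAA (STAT type), TGANTCA (AP-1), TGGAAA (NFAT type), CACGTG (MITF type) and CACCTG, on both strands. None of the matches given here overlaps another. A letter match is a description and not a measured binding site.

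Cd9 (ENSMUSG00000030342, chromosome 6, 125460266 to 125494791, minus strand) had 643, 558, 600 and 551 CPM in CKO libraries 2, 6, 7 and 8, against 1117.8, 1023.9, 932 and 942 CPM in FLOX libraries 3, 4, 6 and 7. The highest CKO library lay well below the lowest FLOX library. The mean was 588 ± 42.1 CPM in CKO and 1003.9 ± 86.4 CPM in FLOX (over 4 libraries each, with SD), so CKO was at 58.6% of FLOX with a 95% interval of 52.2% to 65.7% (log2 fold change -0.77 with an SE of 0.08, edgeR adjusted p = 6.69e-06). Over 17 alternative fits, many of which leave out libraries, the value ran from -0.83 to -0.70. An antisense gene, Gm26728, overlaps 218 exon bases of Cd9, which is 10.7% of its exon length, and without strand information its reads cannot be told from those of Cd9.

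Cd81 (ENSMUSG00000037706, chromosome 7, 143052739 to 143067934, plus strand) had 103, 98, 97.4 and 89.8 CPM in CKO libraries 2, 6, 7 and 8, against 74.1, 63.3, 76.6 and 65.8 CPM in FLOX libraries 3, 4, 6 and 7. All CKO values were above all FLOX values, and here replicate 8 was the CKO library closest to FLOX. CKO averaged 97.1 ± 5.57 CPM and FLOX 69.9 ± 6.41 CPM (SD, n = 4 each), which puts CKO at 139% of FLOX with a 95% interval of 124% to 155% (log2 fold change 0.47 with an SE of 0.07, edgeR adjusted p = 0.000244). The antisense gene R74862 overlaps 104 exon bases of Cd81 (3.61%) and itself had 4 to 15 counts per library. The ratio of Cd9 to Cd81 counts inside a library needs no scaling between libraries. It was 6.22, 5.70, 6.16 and 6.14 in CKO libraries 2, 6, 7 and 8, and 15.1, 16.2, 12.2 and 14.3 in FLOX libraries 3, 4, 6 and 7. The CKO mean of 6.05 ± 0.24 was far under the FLOX mean of 14.4 ± 1.70, with no overlap.

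**Figure D2:**
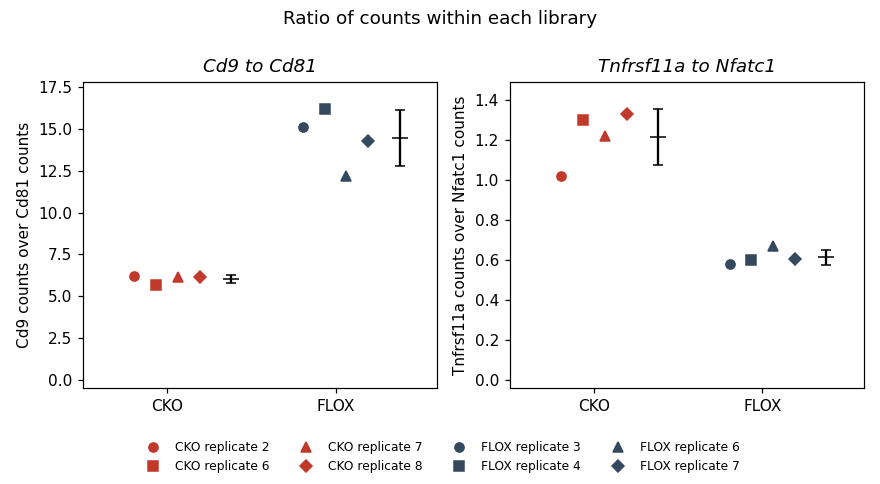
Ratio of counts of a pair of genes within each library, Cd9 over Cd81 at the left and Tnfrsf11a over Nfatc1 at the right; points are libraries, CKO left of FLOX, and black bars show the mean and SD (n = 4 each). The Cd9 to Cd81 ratio is lower in each of the 4 CKO libraries (5.70 to 6.22 against 12.2 to 16.2), and the Tnfrsf11a to Nfatc1 ratio is higher in all 4 (1.02 to 1.33 against 0.578 to 0.670).

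Most of the other tetraspanins that changed did so in the direction of Cd9. Of 22 others listed, 14 were tested, 8 were lower in CKO, 1 was higher and 5 did not pass. Over all tested genes 21.6% were lower and 23.8% higher. Cd63, a tetraspanin of late endosomes and lysosomes, averaged 659.9 ± 63.1 CPM in CKO and 1156.7 ± 120 CPM in FLOX (log2 fold change -0.81, edgeR adjusted p = 1.25e-05). Tspan7 (-1.18), Tspan5 (-0.56) and Cd37 (-0.54), the last a leukocyte tetraspanin, were lower too. Of the 9 partner genes in the list 5 were higher in CKO and 0 lower. They were the laminin receptor subunit Itga6 (0.81), its partner chain Itgb1 (0.25), and Ezr (0.31), Rdx (0.45) and Msn (0.33), whose products tie membrane proteins to actin. The immunoglobulin-type partners did not pass, with Igsf8 at 0.17 (edgeR adjusted p = 0.0869) and Ptgfrn at 0.03 (0.906). Counting these partners in, the list held 6 higher and 8 lower of 23 tested (26.1% and 34.8%), median 0.03. CD9 is also abundant on platelets, and the summed megakaryocyte and platelet list was 274 to 311 CPM in CKO and 373 to 445 CPM in FLOX. Most of that sum was Vwf. Itga2b, a defining platelet gene, had 0 to 3 counts per library, and Gp6 had 0 in all. Pf4 differed by -0.08 (edgeR adjusted p = 0.492).

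The receptor for RANK ligand was higher in CKO. Its RefSeq promoter on GRCm38.p6 is shown because it carries CACCTG-type E-boxes, in capitals, at 2 positions.
Tnfrsf11a, chr1:105780473-105780717, plus strand: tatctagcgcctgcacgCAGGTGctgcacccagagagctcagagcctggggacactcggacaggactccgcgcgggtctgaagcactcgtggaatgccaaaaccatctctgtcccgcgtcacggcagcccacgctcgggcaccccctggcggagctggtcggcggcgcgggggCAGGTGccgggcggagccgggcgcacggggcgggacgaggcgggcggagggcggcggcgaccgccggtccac
The E-boxes start 233 and 77 bases before the RefSeq start, and none of the other 5 motifs was found in that window. The same E-box also stood before Oscar and before the Acp5 starts not printed here, so it was not particular to Cd9 and Tnfrsf11a.

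Tnfrsf11a (ENSMUSG00000026321, chromosome 1, 105780718 to 105847981, plus strand), which encodes RANK, had 65.5, 76.3, 74.3 and 78.7 CPM in CKO libraries 2, 6, 7 and 8, against 37.5, 44.6, 44.2 and 45.6 CPM in FLOX libraries 3, 4, 6 and 7. The groups were well apart, with CKO replicate 2 and FLOX replicate 3 the lowest of their groups. CKO averaged 73.7 ± 5.76 CPM and FLOX 43.0 ± 3.70 CPM (SD, n = 4 each). CKO was thus at 172% of FLOX with a 95% interval of 152% to 193% (log2 fold change 0.78 with an SE of 0.08, edgeR adjusted p = 8.11e-06). The 17 alternative fits, omissions of libraries among them, gave 0.72 to 0.87. The ligand gene Tnfsf11 had 0 counts in all 8 libraries. The decoy receptor gene Tnfrsf11b had 12 counts over the CKO libraries, 8 of them in replicate 7, and 4 over the FLOX libraries.

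Few of the signalling genes directly beneath RANK changed. Of 28 tested, 3 were higher and 4 lower in CKO, with a median of -0.02. These were 10.7% and 14.3%, beside 23.8% and 21.6% of all tested genes. Traf6, the adaptor that RANK needs in osteoclast formation, had 54.9 ± 3.97 CPM in CKO and 60.6 ± 7.37 CPM in FLOX (log2 fold change -0.14, edgeR adjusted p = 0.222). Those lower were the NF-κB subunit genes Relb (-0.46) and Nfkb2 (-0.31), the adaptor gene Traf5 (-0.40) and the kinase gene Ikbkb (-0.20). Other NF-κB genes of the list did not pass, with Nfkb1 at -0.01, Rela at -0.13, Chuk at 0.05, Ikbkg at 0.10 and Map3k14 at -0.11. Jdp2, a partner of AP-1 factors that mouse osteoclasts need, was higher (0.71, edgeR adjusted p = 0.000123).

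Oscar, a collagen receptor that supplies the ITAM signal in osteoclasts, was close to absent. Oscar (ENSMUSG00000054594, chromosome 7, 3609813 to 3616157, minus strand) had 1, 3, 0 and 0 counts in CKO libraries 2, 6, 7 and 8, and 1, 0, 2 and 1 counts in FLOX libraries 3, 4, 6 and 7. That is 4 counts in each genotype, so no difference could be detected at this depth and no fold is given. A count of 0 still allows up to 3 counts in that library, by counting error only.

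The wider ITAM and calcium list moved both ways. Of 30 tested, 10 were higher and 7 lower in CKO, with a median of 0.05. These were 33.3% and 23.3%, beside 23.8% and 21.6% of all tested genes. The adaptor gene Fcer1g, with which OSCAR pairs, had 440.1 ± 33.9 CPM in CKO and 517 ± 57.3 CPM in FLOX (log2 fold change -0.23, edgeR adjusted p = 0.0388). The kinase gene Syk (-0.45), its adaptor Blnk (-0.74) and the paired receptor gene Pirb (-0.49) were lower. The Fc receptor gene Fcgr1 (1.04) and the adaptor gene Lcp2 (0.63) were higher.

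Nfatc1, which encodes the transcription factor at the head of osteoclast differentiation, was slightly lower in CKO. Nfatc1 (ENSMUSG00000033016, chromosome 18, 80606205 to 80713071, minus strand) had 64.4, 58.8, 60.7 and 59.0 CPM in CKO libraries 2, 6, 7 and 8, against 64.8, 74.5, 66.0 and 75.4 CPM in FLOX libraries 3, 4, 6 and 7. The ranges just failed to touch, since CKO replicate 2 stood beside FLOX replicate 3. FLOX replicates 3 and 6 lay nearer to CKO than 4 and 7, the same split of FLOX as over all tested genes. CKO averaged 60.7 ± 2.60 CPM and FLOX 70.2 ± 5.53 CPM (SD, n = 4 each), 86.6% of FLOX with a 95% interval of 78.2% to 95.9% (log2 fold change -0.21 with an SE of 0.07, edgeR adjusted p = 0.0248). This call was fragile. It was lost without CKO replicate 6 (edgeR adjusted p = 0.11), 7 (0.0896) or 8 (0.104), without FLOX replicate 4 (0.0684) or 7 (0.0632), and with the replicate number as a block (0.125), while the log2 fold change stayed between -0.24 and -0.17. The block fit compares the genotypes only within replicate numbers 6 and 7, the numbers that both hold. Over all 17 alternatives the adjusted p ran from 0.0111 to 0.125.

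Tnfrsf11a differed by 0.78 in log2 fold change and Nfatc1 by -0.21, the latter with a fragile call. Their count ratio within a library combines these same values, and most of its difference comes from Tnfrsf11a. The ratio of Tnfrsf11a to Nfatc1 counts was 1.02, 1.30, 1.22 and 1.33 in CKO libraries 2, 6, 7 and 8, and 0.578, 0.599, 0.670 and 0.605 in FLOX libraries 3, 4, 6 and 7. The mean was 1.22 ± 0.142 in CKO and 0.613 ± 0.0395 in FLOX.

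Among 20 tested transcription factors of the osteoclast list, 11 were lower and 5 higher in CKO, with a median of -0.26. These were 55% and 25%, beside 21.6% and 23.8% of all tested genes. Tfeb, a regulator of lysosomal genes that acts in osteoclast resorption, averaged 47.9 ± 3.09 CPM in CKO and 85.2 ± 6.36 CPM in FLOX (log2 fold change -0.83, edgeR adjusted p = 2.36e-06). Pparg (-0.57) and Cebpa (-0.61), which serve both macrophages and osteoclasts, were lower. So was Irf8, a brake on osteoclast formation (-0.64, edgeR adjusted p = 4.98e-05). Those higher were led by Id1, which binds helix-loop-helix factors and keeps them off DNA. It had 9.13, 19.0, 15.9 and 18.7 CPM in CKO libraries 2, 6, 7 and 8, against 0.21, 0.68, 0.486 and 0.497 CPM in FLOX libraries 3, 4, 6 and 7. Myc (1.62) was higher as well.

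The resorption gene Acp5 was lower in CKO. The RefSeq promoter at the third of its 3 starts, on GRCm38.p6, is shown since it holds a STAT6-type palindrome beside an NFAT-type hexamer, which the other starts lack; capitals mark these motifs.
Acp5, chr9:22130609-22130848, minus strand: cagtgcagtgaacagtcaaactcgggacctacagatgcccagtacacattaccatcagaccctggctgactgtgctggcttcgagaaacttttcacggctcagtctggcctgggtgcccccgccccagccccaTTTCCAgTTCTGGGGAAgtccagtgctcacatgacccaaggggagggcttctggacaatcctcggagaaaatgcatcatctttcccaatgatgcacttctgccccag
STAT6 is the transcription factor downstream of the IL-4 receptor. TTCNNNNGAA occurs in 5.85% of the 32851 RefSeq windows of 250 bases before a start and TGGAAA or its reverse complement in 18.6%.

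Acp5 (ENSMUSG00000001348, chromosome 9, 22126727 to 22135711, minus strand) encodes tartrate-resistant acid phosphatase, the enzyme stained to mark osteoclasts. It had 10.9, 7.77, 8.07 and 7.68 CPM in CKO libraries 2, 6, 7 and 8, against 13.3, 13.3, 12.0 and 10.2 CPM in FLOX libraries 3, 4, 6 and 7. The ranges overlapped through a single library each way, CKO replicate 2 lying above FLOX replicate 7. CKO averaged 8.60 ± 1.53 CPM and FLOX 12.2 ± 1.47 CPM (SD, n = 4 each), which is 70.0% of FLOX with a 95% interval of 57.6% to 85.1% (log2 fold change -0.51 with an SE of 0.13, edgeR adjusted p = 0.00627). The 17 alternatives kept the call, at -0.62 to -0.45. Without CKO replicate 2 the value was -0.61 (edgeR adjusted p = 0.00141). The antisense gene 6530413G14Rik overlaps 137 exon bases of Acp5, or 6.75%, and its reads cannot be told apart.

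Most other resorption genes were lower too. Of 25 tested, 19 were lower and 3 higher in CKO (76% and 12%, against 21.6% and 23.8% of all genes), with a median of -0.33 beside -0.02 for all genes. Ctsk, the cathepsin that digests bone collagen, averaged 10.4 ± 1.11 CPM in CKO and 25.7 ± 2.61 CPM in FLOX (log2 fold change -1.30, edgeR adjusted p = 1.52e-06). Subunits of the proton pump were lower, with Tcirg1 at -0.45, Atp6v0d1 at -0.48 and Atp6v1c1 at -0.38. Many of these pump genes serve lysosomes in any macrophage. Itgb3, the integrin chain of the osteoclast sealing zone, was lower by a small margin (130.5 ± 2.08 CPM in CKO and 153 ± 12.4 CPM in FLOX, -0.23, edgeR adjusted p = 0.0108). The 3 genes higher in CKO were Ckb (0.60), another integrin chain gene, Itgav (0.58), and Ptk2b (0.37). Car2, carbonic anhydrase 2, averaged 0.661 CPM in CKO and 1.75 CPM in FLOX, from 5 to 31 counts per library. Atp6v0d2 stands in this list and in the fusion list.

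Calcr and Mmp9, which mark mature osteoclasts, were at or near 0 in both genotypes. The calcitonin receptor gene Calcr had 0 counts in all 8 libraries, and Mmp9 had 14 counts over the CKO libraries and 6 over the FLOX libraries. The osteoclast marker list as a whole summed to 781 to 881 CPM in CKO and 1159.3 to 1338.3 CPM in FLOX, of which Atp6v0d2 was the largest part. Of its 7 tested genes 5 were lower and 1, Ckb, was higher (71.4% and 14.3%, beside 21.6% and 23.8% of all tested genes). The name osteoclast-like is therefore kept for the genes and not for the cells. The macrophage marker list summed to 12870.7 to 14651.0 CPM in CKO and 20441.1 to 22307.5 CPM in FLOX, with the driver locus Lyz2 its largest gene. Of its 12 tested genes 6 were lower and 1 was higher in CKO, with a median of -0.28, beside -0.33 for the resorption list. That was 50% lower and 8.33% higher, against 21.6% and 23.8% of all tested genes. Besides Lyz2, Mertk (-0.78), Cd68 (-0.48), Ctss (-0.46), C1qb (-0.43) and Csf1r (-0.42) were lower, Fcgr1 was higher, and Adgre1 (F4/80) differed by 0.00 (edgeR adjusted p = 0.959). The part of this shift in the resorption genes was not tested.

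**Figure D3:**
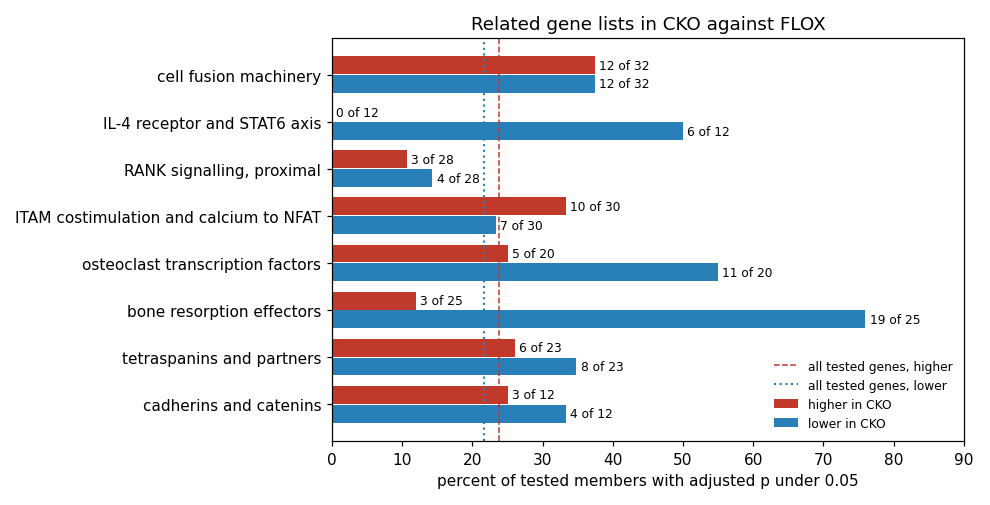
Share of tested genes called higher (red) or lower (blue) in CKO against FLOX for 8 gene lists around the 9 genes, in percent, with the counts beside each bar; dashed and dotted lines mark the shares over all tested genes (23.8% higher and 21.6% lower). The bar of lower genes is longest for bone resorption effectors (19 of 25), and the RANK signalling list lies under both lines.

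The IL-4 receptor and its STAT6 axis, the arm through which IL-4 acts on fusion, held 0 higher and 6 lower of 12 tested genes, with a median of -0.19. That was 0% higher and 50% lower, beside 23.8% and 21.6% of all tested genes. Il4ra, the receptor chain, averaged 46.1 ± 2.11 CPM in CKO and 56.2 ± 4.9 CPM in FLOX (log2 fold change -0.29, edgeR adjusted p = 0.00631). Also lower were the phosphatase gene Ptpn1 (-0.44), the kinase genes Jak1 (-0.25) and Tyk2 (-0.21), and Stat6 (-0.17, edgeR adjusted p = 0.0202). The sixth was Socs3, a feedback inhibitor of cytokine receptors, with 16, 27, 65 and 39 counts in CKO libraries 2, 6, 7 and 8, against 53, 76, 66 and 82 counts in FLOX libraries 3, 4, 6 and 7. Its log2 fold change of -0.89 (edgeR adjusted p = 0.0252) was the largest of the 6, and it is named here after its value was seen. The count of lower genes fell to 2 without CKO replicate 6 and to 3 without CKO replicate 7 or 8.

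**Figure D4:**
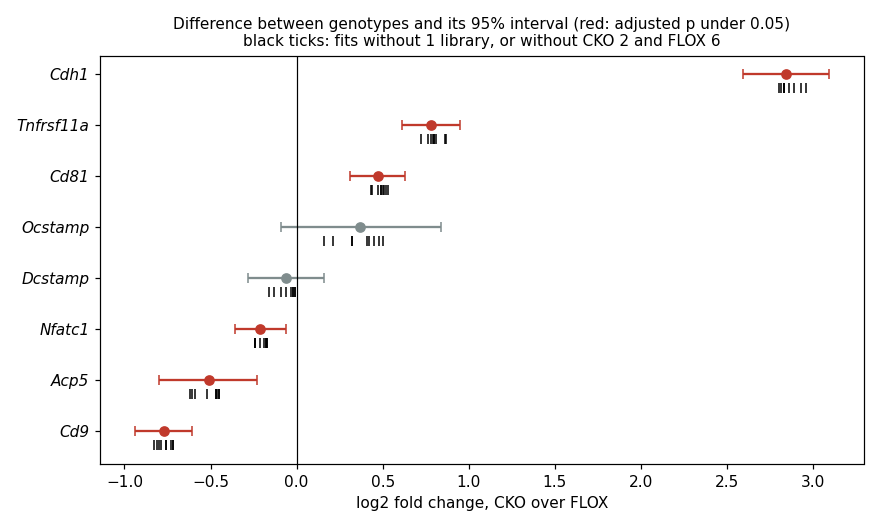
Log2 fold change of CKO over FLOX for the 8 tested members, as points with 95% intervals, in red where the edgeR adjusted p was under 0.05; black ticks show fits without single libraries or without CKO replicate 2 and FLOX replicate 6. Cdh1 stands alone at 2.84, Tnfrsf11a and Cd81 lie at 0.78 and 0.47, and Cd9, Acp5 and Nfatc1 lie at -0.77, -0.51 and -0.21.

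Levels between genes were compared per kilobase of exon. In CKO the order was Cd9 (288 CPM per kilobase), Cd81 (33.7), Tnfrsf11a (12.3), Cdh1 (9.0), Nfatc1 (8.13), Dcstamp (4.46), Acp5 (4.24), Ocstamp (1.09) and Oscar (0.0381). Neighbours whose libraries overlapped were Cdh1 with Nfatc1 and Dcstamp with Acp5. In FLOX it was Cd9 (491), Cd81 (24.3), Nfatc1 (9.39), Tnfrsf11a (7.18), Acp5 (6.01), Dcstamp (4.65), Cdh1 (1.26), Ocstamp (0.864) and Oscar (0.0337), with overlap of Tnfrsf11a with Acp5 and of Acp5 with Dcstamp. Cdh1 thus held place 4 in CKO and place 7 in FLOX, and Tnfrsf11a stood above Nfatc1 in CKO but below it in FLOX. Among all listed tetraspanins Cd9 had the highest mean level per length in FLOX, whereas in CKO it came after Cd53 (308 CPM per kilobase). That Cd53 mean lay inside the range of Cd9 over the CKO libraries, 269.7 to 314.

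**Figure D5:**
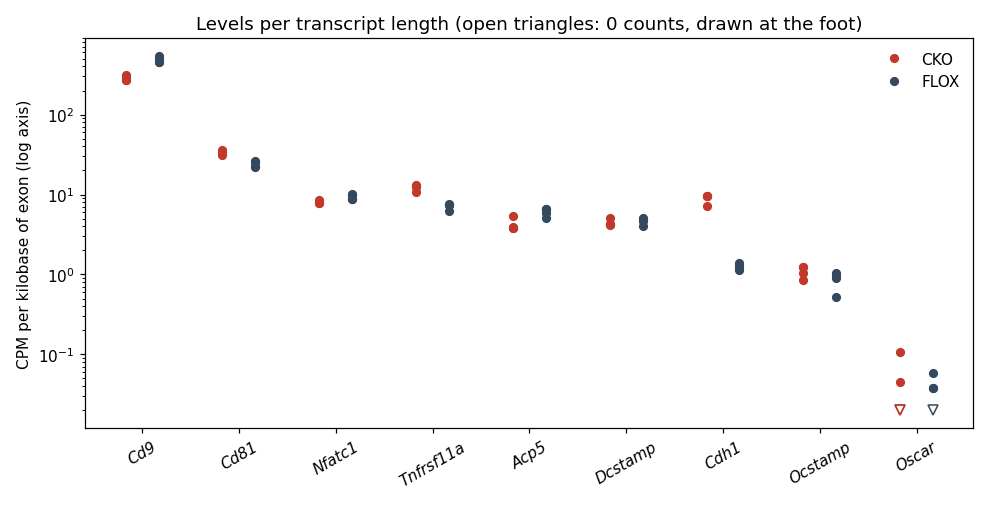
Level of the 9 genes in CPM per kilobase of exon, on a log axis, CKO left of FLOX for each gene and points for libraries; open triangles mark libraries with 0 counts. Cd9 is the highest in both genotypes (means 288 and 491), and Cdh1 shows the widest gap between them (9.0 and 1.26).

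Genes with the most similar pattern were sought over the 8 libraries, by Pearson r of log2 CPM among 10528 genes, as a description. The 2 genotypes form separate groups, so a member that differs resembles a great many genes. Cdh1 had 1492 genes at r of 0.9 or more, Tnfrsf11a 1363, Cd9 1222, Cd81 1069, Acp5 573 and Nfatc1 503. Dcstamp had 4 and Ocstamp 2. With values centred within each genotype, Dcstamp was closest to Gpr137b (r = 0.986), Atp6v0d2 (0.984) and Aig1 (0.981). Cd9 was closest to Tha1 (0.995), Ctsl (0.984) and Arl6ip5 (0.981) on that scale, and Cdh1 to Zfp180 (0.999), Zc3h7a (0.998) and Fzd5 (0.981). These centred values rest on 4 libraries of each genotype and share the position of CKO replicate 2.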

How the data were processed

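Total RNA of BMDM was sequenced as read pairs in 8 libraries. The tools named in the submitters' processing notes are HISAT2 2.0.5 and HTSeq, and the build is mm10. HTSeq's version, its annotation and whether it used strand are not given here. The deposited values are raw counts per gene symbol, with 0 columns lacking a sample. The 5 classes of unassigned reads were left out. Multiply aligned reads were not examined.

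Counts were analysed with edgeR 4.0.16 in R 4.3.3: filterByExpr (minimum count 10, minimum total 15), TMM factors, the quasi-likelihood F test on 4 CKO and 4 FLOX libraries without a block, and Benjamini-Hochberg adjustment over 11519 genes, called at 0.05. The SE is the log2 fold change divided by the root of F, and 95% intervals use the moderated degrees of freedom. Biological variation between libraries was 8.77% (as a coefficient). Libraries of a genotype differed by more than sampling noise (2.45 to 27.8 in chi-square over its degrees of freedom). Exon lengths and positions are those of GENCODE M21 on GRCm38. Pattern similarity used log2 CPM with a prior count of 2.

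As alternatives, RLE factors, upper-quartile factors, no filter, a filter of 1 CPM in 4 libraries, DESeq2 1.42.0, limma-voom (limma 3.58.1), removal of the 20 most abundant genes, the replicate number as a block, and omission of libraries were tried. Members, lists and motifs were chosen with earlier results of these data known. Named genes are the members, Opa1, Lyz2, up to 5 genes of smallest p per list and a set of genes always given. For each member the genes of highest Pearson r were added. Cd53, cell markers such as Cd207 and genes overlapping a member were named outside that rule, after their values were seen. So were further list genes (Socs3, Zeb2, Msn, Itgav, Ckb, Ptk2b and unchanged NF-κB genes).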

Additional observations from a re-analysis of the deposited data

Results flagged for a closer look

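In 3 of 16 groups of 4 libraries examined, 1 library stood farther from the others than Dixon's 95% limit allows, and chance alone marks about 1 group in 20. All 3 concern CKO replicate 2. Cdh1 had 33.0 CPM there, against 43.7 to 44.0 CPM in the other CKO libraries. Dcstamp had 13.4 CPM there, against 11.2 to 11.5 CPM. Acp5 had 10.9 CPM there, against 7.68 to 8.07 CPM. In each case the value lay on the side of the FLOX mean, which was 5.77 CPM for Cdh1, 12.4 CPM for Dcstamp and 12.2 CPM for Acp5. It also has the fewest assigned read pairs, 11764855. Why it stands apart was not tested.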

How the results depend on the processing

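Cdh1, Cd9, Cd81, Tnfrsf11a and Acp5 kept their direction and call in 17 of 17 alternatives, Dcstamp and Ocstamp were called in 0 of 17, and Nfatc1 was called in 11 of 17. The groups share only the replicate numbers 6 and 7, and deviations from the group means correlated at 0.139 for number 6 and -0.072 for number 7, so the libraries share a number and no shown pairing. With the replicate number as a block, 1985 genes were called higher and 1518 lower in CKO, against 2739 and 2492 without it, and of the members Nfatc1 was lost (adjusted p = 0.125, edgeR), leaving 3 higher and 2 lower. A number found in a single genotype adds nothing to the contrast of that fit. It therefore compares only CKO replicates 6 and 7 with FLOX replicates 6 and 7, and is not a check on all 8 libraries. The IL-4 receptor and STAT6 list held 6 lower genes, but 2 without CKO replicate 6 and 3 without CKO replicate 7 or 8. The lower count of the resorption list ran from 16 to 19, and its higher count of 3 became 5 with the 20 most abundant genes removed. Depth limits Ocstamp (35 to 74 counts per library) and Oscar (0 to 3).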
